A study of Mus musculus with 13 samples.

Results

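The interferon-stimulated genes described here are Stat2, Irf7, Irf9, Ifit1, Ifit3, Isg15, Bst2, Ifitm3 and Oasl2, 9 of the 37636 gene IDs in the deposited table. They were listed by name as genes known to answer interferon, and each was matched to its row by gene symbol, with the row of the highest mean taken where a symbol had several. All 9 are annotated as protein-coding genes, and all 9 had a value above 0 in each of the 13 libraries.

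Brain RNA of male Balb/c mice aged 6 to 8 weeks was sequenced in 3 groups, from a brain region that is not named. The 6-OHG group (4 libraries) was exposed to an altitude of 8000 m for 24 h and received 6-OHG, a compound given only by this code and without a dose. The Mod group (5 libraries) had the same exposure without 6-OHG, and the Con group (4 libraries) was kept in the normal condition without 6-OHG. The labels name no vehicle, do not say how the altitude was produced and do not say that replicates are separate mice, so the p-values below cover the spread among these libraries and no more, and that spread may be technical. Comparing Mod with Con asks what the exposure changed, comparing 6-OHG with Mod asks what the compound changed under exposure, and comparing 6-OHG with Con sets the treated exposed mice against the normal condition.

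Type I interferons are secreted proteins that cells release after sensing foreign or misplaced nucleic acid. They bind a receptor whose kinases phosphorylate STAT2, which joins IRF9 in a complex that enters the nucleus and binds a short DNA element, the interferon-stimulated response element, in the promoters of many genes. In brain the basal level of this response is low, and microglia, endothelial cells, astrocytes and neurons can all raise it during infection or injury.

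The element's core is the letters GAAA, any 2 bases, and GAAA again, and it was searched on both strands of 300-base RefSeq promoter windows (GRCm38.p6) that run from 250 bases before to 50 bases after each gene's start. All 9 genes had at least 1 window, and Irf9 had 2. The core was found in 6 of the 9 genes (Stat2, Ifit1, Ifit3, Isg15, Bst2 and Ifitm3), against 3.44% of all 32851 windows. When at most 1 mismatch was allowed, 8 of the 9 held it and Irf7 did not, against 35.4% of all windows. The windows of Bst2, Isg15 and Stat2 are shown because expression of Bst2 and Stat2 passed the test in at least 1 comparison and that of Isg15 separated Mod from Con. Capitals mark the matches to the core, read 5′ to 3′ on the gene's own strand, and TTTC marks the core on the opposite strand.
Bst2: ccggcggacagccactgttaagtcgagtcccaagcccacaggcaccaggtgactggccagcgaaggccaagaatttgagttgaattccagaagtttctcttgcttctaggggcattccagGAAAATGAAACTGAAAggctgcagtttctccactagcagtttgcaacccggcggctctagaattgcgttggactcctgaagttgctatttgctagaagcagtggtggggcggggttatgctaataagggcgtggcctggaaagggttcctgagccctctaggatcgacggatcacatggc
Isg15: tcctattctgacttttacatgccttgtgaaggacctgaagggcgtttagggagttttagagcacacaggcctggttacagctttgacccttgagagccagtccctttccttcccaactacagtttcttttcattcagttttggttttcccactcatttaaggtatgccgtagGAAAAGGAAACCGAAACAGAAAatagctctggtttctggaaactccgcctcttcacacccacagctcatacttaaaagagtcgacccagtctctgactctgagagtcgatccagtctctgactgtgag
Stat2: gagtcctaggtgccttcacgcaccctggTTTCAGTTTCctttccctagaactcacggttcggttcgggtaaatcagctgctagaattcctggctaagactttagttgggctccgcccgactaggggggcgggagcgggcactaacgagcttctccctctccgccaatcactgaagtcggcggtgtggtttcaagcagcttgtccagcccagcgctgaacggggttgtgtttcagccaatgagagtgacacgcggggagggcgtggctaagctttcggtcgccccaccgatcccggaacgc
The Bst2 window lies at chr8:71537423-71537722 on the minus strand and holds 2 overlapping matches, the first beginning 130 bases before the start. The Isg15 window lies at chr4:156200769-156201068 on the minus strand and holds 3 overlapping matches, the first 78 bases before the start. The Stat2 window lies at chr10:128270248-128270547 on the plus strand and holds 1 match, 222 bases before the start. A match describes these letters and is not evidence of binding.

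The Ifit1 and Ifit3 matches are shown in 30-base stretches because both genes carry a pair of cores. In Ifit1 they begin 104 and 85 bases before it, and in Ifit3 156 and 122 bases before it.
Ifit1 distal: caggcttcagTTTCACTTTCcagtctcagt
Ifit1 proximal: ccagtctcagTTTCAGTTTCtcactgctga
Ifit3 distal: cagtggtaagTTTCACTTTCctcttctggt
Ifit3 proximal: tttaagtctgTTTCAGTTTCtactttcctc
Ifitm3: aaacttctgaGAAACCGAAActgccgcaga
The Ifitm3 stretch covers the later of its 2 matches, and both lie after the start. These stretches lie at chr19:34640775-34640804 and chr19:34640794-34640823 for Ifit1, chr19:34583363-34583392 and chr19:34583397-34583426 for Ifit3, all on the plus strand, and chr7:141010706-141010735 on the minus strand for Ifitm3. A second motif, the gamma-activated sequence TTCNNNGAA, was found in Bst2 and Ifitm3, 2 of the 9 genes, against 8.3% of all windows, and in each it overlapped 1 of the matches above.

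The values are FPKM, which divide a gene's fragments by its length and by the library's mapped fragments, so levels of different genes can be set side by side. The FPKM columns summed to between 268208 and 312908 per library. Read totals are not known, and a rough worth of 1 read pair from the lowest values placed the 9 genes between 5 pairs (Isg15) and 616 pairs (Stat2) in a library. Summed levels of 10 neuron markers (919 to 1030, 881 to 945 and 958 to 1060 FPKM in 6-OHG, Mod and Con libraries) and of 10 astrocyte markers (440 to 549, 465 to 553 and 470 to 570 FPKM) were high in every library, and every Mod library lay below every Con library in the neuron sum. A change is the mean log2(FPKM + 1) of the first group named minus that of the second, a scale on which folds of low genes come out too small. Tests were made with limma over 13905 genes whose mean reached 1 FPKM, and a gene is said to rise or fall at an adjusted p under 0.05 over all of them.

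The 9 genes stayed at low levels in the 3 groups, with mean levels between 0.254 and 9.04 FPKM. Bst2, which tethers budding virions to the cell surface, fell in both exposed groups relative to Con. Its call in 6-OHG was lost in 18 of 25 alternative fits, and that in Mod in 2 of 25. Stat2, the signal transducer of the receptor, rose in 6-OHG libraries relative to Con by a small amount, a call lost in 6 of 26 alternative fits. No member passed the test between 6-OHG and Mod. Of the 9 genes, 5 were tested (Stat2, Irf9, Isg15, Bst2 and Ifitm3), and Irf7, Ifit1, Ifit3 and Oasl2 had means under 1 FPKM.

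In Mod against Con 1 of the 5 members tested was called, as lower, where 23.8% of all genes tested were called, 14% as higher and 9.81% as lower. Groups did not overlap for 2 of the 5, both lower in Mod, against 22.4% of all genes (13.5% higher and 8.87% lower). In 6-OHG against Mod limma called 0 of the 5, with 0 at an unadjusted p under 0.05, where 15.3% of all genes were called (6.98% higher and 8.35% lower). Groups did not overlap for 0 of the 5, against 15.9% of all genes (7.6% higher and 8.34% lower). In 6-OHG against Con 2 of the 5 were called, 1 higher and 1 lower, where 30.7% of all genes were called (16.3% higher and 14.4% lower). Groups did not overlap for 1 of the 5, Stat2, against 28.1% of all genes (15.6% higher and 12.5% lower). The split of all called genes depended on the scaling. In Mod against Con 1940 were higher and 1364 lower as deposited, and 1120 higher and 1596 lower after rescaling to equal sums. In 6-OHG against Mod 970 were higher and 1161 lower as deposited, 1368 higher and 395 lower after rescaling to equal sums, and 1307 higher and 965 lower after quantile normalization. The median log2 change of the 5 members was -0.08 in Mod against Con, 0.06 in 6-OHG against Mod and -0.01 in 6-OHG against Con, beside 0.01, -0.02 and 0.00 over all genes tested. The shares of members called are counts of 5 genes on either side of these backgrounds, and both comparisons with Con share the Con libraries.

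**Figure D1:**
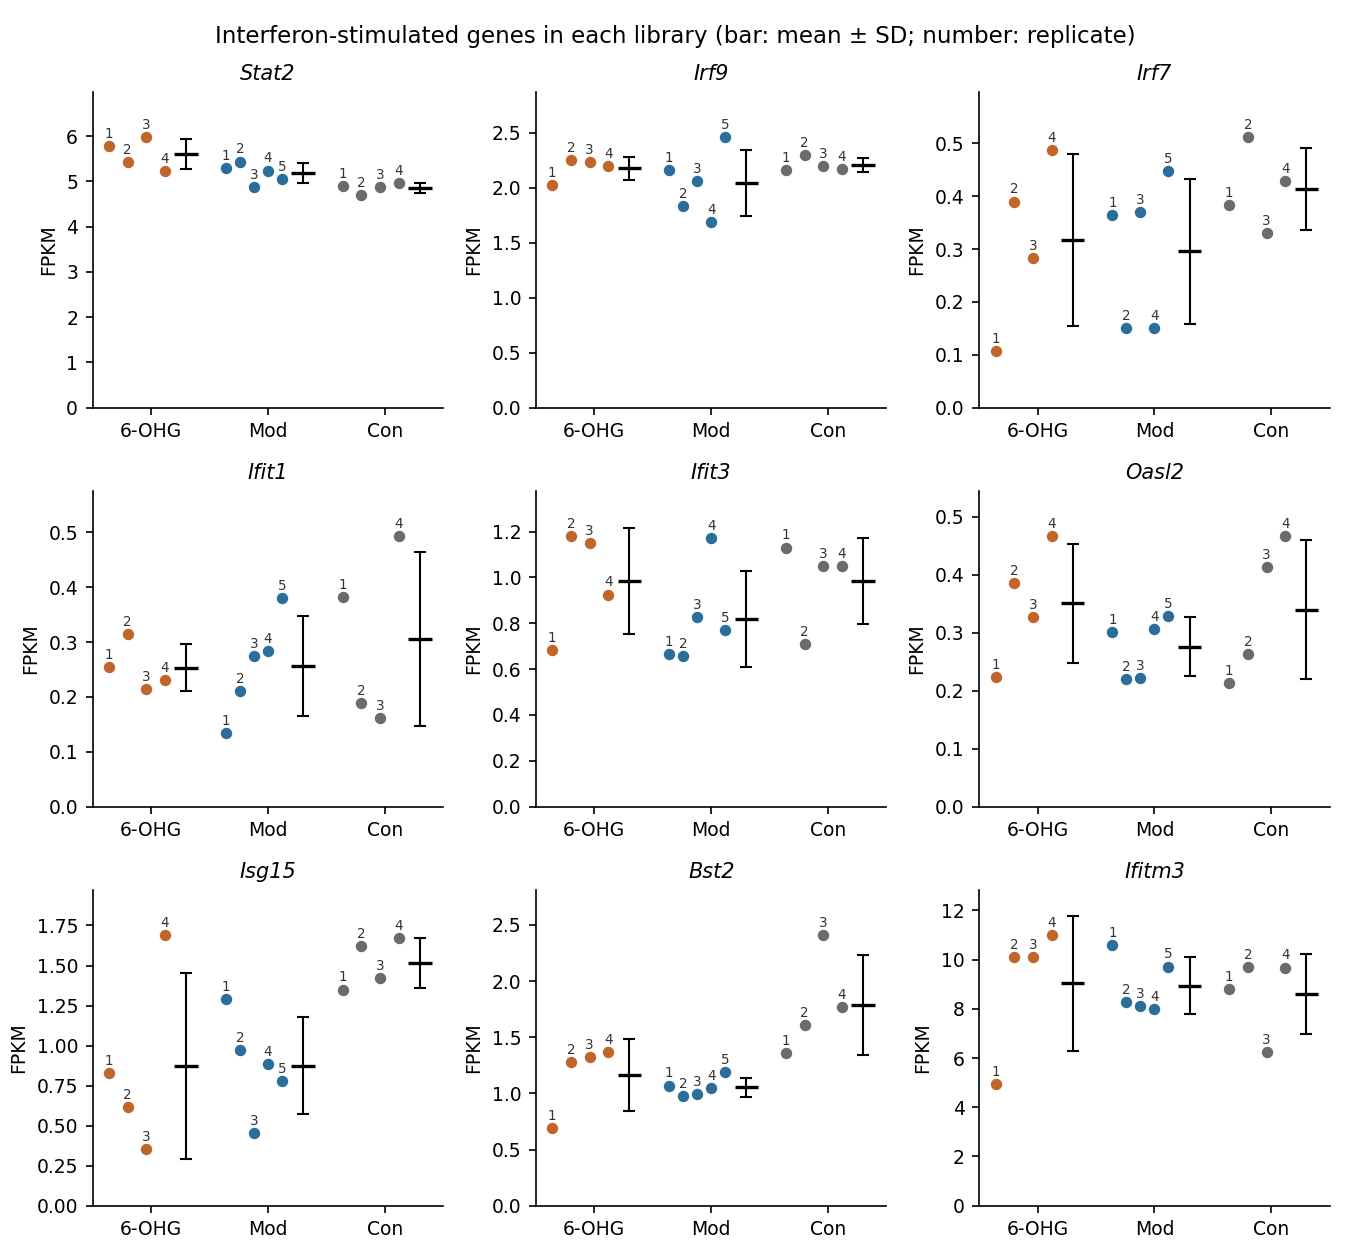
Level of each of the 9 genes in FPKM (vertical axes, starting at 0) in every library of the 6-OHG, Mod and Con groups; points are libraries numbered by replicate, and the black bar beside them is the mean ± SD (n = 4, 5 and 4). All 5 Mod libraries lie under all 4 Con libraries for Isg15 and Bst2, and all 4 6-OHG libraries lie over all 4 Con libraries for Stat2.

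Over all 13 libraries the order of mean levels was Ifitm3 (8.87 FPKM), Stat2 (5.21), Irf9 (2.13), Bst2 (1.32), Isg15 (1.07), Ifit3 (0.92), Irf7 (0.339), Oasl2 (0.319) and Ifit1 (0.271). Stat2 and Irf9 were apart, since the lowest Stat2 library (4.69 FPKM) lay above the highest Irf9 library (2.46). Ifit3 and Irf7 were also apart, with the lowest Ifit3 library at 0.655 and the highest Irf7 library at 0.512 FPKM. All other neighbours in this order overlapped across libraries.

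Among the signalling members, Stat2 (chromosome 10, 128270559 to 128292849, plus strand, GRCm38) encodes the STAT partner that carries the transactivating part of the interferon complex. It measured 5.79, 5.43, 5.98 and 5.23 FPKM in the 6-OHG libraries, 5.30, 5.44, 4.88, 5.24 and 5.06 in Mod and 4.89, 4.69, 4.88 and 4.96 in Con. All 4 6-OHG libraries lay above all 4 Con libraries, and Mod overlapped both groups. The means were 5.61 ± 0.338 FPKM in 6-OHG libraries, 5.18 ± 0.217 in Mod and 4.85 ± 0.116 in Con (SD, n = 4, 5 and 4). Stat2 therefore stood at 116% of its Con mean in 6-OHG libraries, a log2 change of 0.17 (SE 0.05, limma adjusted p = 0.0244). The change between Mod and Con was 0.08 (limma adjusted p = 0.283) and that between 6-OHG and Mod 0.10 (limma adjusted p = 0.216). The call against Con was lost when Con replicate 2, 6-OHG replicate 1 or 6-OHG replicate 3 was left out, with limma adjusted p of 0.062, 0.0636 and 0.0665, and over 26 alternatives the adjusted p ran from 0.0191 to 0.125. As in all bulk samples, fewer cells of a type and less RNA per cell cannot be told apart.

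Irf9 (chromosome 14, 55603571 to 55610030, plus strand) encodes the DNA-binding partner of STAT2. It measured 2.02, 2.25, 2.23 and 2.2 FPKM in 6-OHG libraries, 2.16, 1.83, 2.06, 1.69 and 2.46 in Mod and 2.16, 2.3, 2.2 and 2.17 in Con. The Mod libraries spread around all others, and no group was apart. Its log2 changes were -0.08 for Mod against Con (95% interval -0.24 to 0.07), 0.07 for 6-OHG against Mod (-0.09 to 0.23) and -0.01 for 6-OHG against Con (-0.18 to 0.15), and none passed the test. Irf9 overlaps Rnf31 on the same strand, which averaged 4.36 FPKM, so how reads were divided between them is uncertain.

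Irf7 (chromosome 7, 141262706 to 141266481, minus strand) encodes the factor that amplifies transcription of type I interferon genes. Its level was 0.107, 0.390, 0.283 and 0.487 FPKM in 6-OHG libraries, 0.364, 0.151, 0.370, 0.150 and 0.447 in Mod and 0.383, 0.512, 0.331 and 0.429 in Con. The lowest values came from 6-OHG replicate 1 and Mod replicates 2 and 4, and the groups overlapped in each comparison. Irf7 overlaps Phrf1, which averaged 4.93 FPKM on the opposite strand, and since the counting is not stated to use strand the reads of both genes cannot be told apart. Fitted without the filter on low values, its log2 changes were -0.13, 0.02 and -0.11 in Mod against Con, then in 6-OHG against Mod, then in 6-OHG against Con, with limma adjusted p of 0.524, 0.968 and 0.556.

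Transcripts of the antiviral proteins that act on RNA were all among the 4 members below the filter. Ifit1 (chromosome 19, 34640871 to 34650009, plus strand), whose protein binds foreign RNA and blocks its translation, measured 0.255, 0.314, 0.215 and 0.230 FPKM in 6-OHG libraries, 0.134, 0.210, 0.275, 0.284 and 0.380 in Mod and 0.382, 0.188, 0.161 and 0.493 in Con. Its lowest and highest values in Con were further apart than the group means. Ifit3 (chromosome 19, 34583531 to 34588731, plus strand), of the same family, measured 0.682, 1.18, 1.15 and 0.925 FPKM in 6-OHG libraries, 0.667, 0.655, 0.827, 1.17 and 0.772 in Mod and 1.13, 0.709, 1.05 and 1.05 in Con. Ifit3 has a near-identical copy, Ifit3b, at 1.02 to 1.61, 1.12 to 1.58 and 0.854 to 1.98 FPKM in 6-OHG, Mod and Con libraries, so the division of reads between the copies is uncertain. Oasl2 (chromosome 5, 114896936 to 114912234, plus strand), an oligoadenylate synthetase-like gene, measured 0.224, 0.386, 0.327 and 0.467 FPKM in 6-OHG libraries, 0.302, 0.220, 0.222, 0.307 and 0.329 in Mod and 0.214, 0.264, 0.414 and 0.467 in Con. The groups overlapped for all 3 genes in every comparison. Fitted without the filter, the largest of their log2 changes was -0.13, for Ifit3 in Mod against Con (limma adjusted p = 0.607).

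Isg15 (chromosome 4, 156199424 to 156200818, minus strand) encodes a ubiquitin-like protein that is joined to other proteins during the response. It measured 0.831, 0.615, 0.355 and 1.69 FPKM in 6-OHG libraries, 1.29, 0.970, 0.451, 0.885 and 0.777 in Mod and 1.35, 1.62, 1.42 and 1.67 in Con. All 5 Mod libraries and 3 of the 4 6-OHG libraries lay below every Con library, and 6-OHG replicate 4 lay above every Con library. The means were 0.872 ± 0.577 FPKM in 6-OHG libraries, 0.876 ± 0.306 in Mod and 1.51 ± 0.154 in Con. The log2 change of Mod against Con was -0.44 (SE 0.17, 95% interval -0.81 to -0.06) and missed the threshold (limma adjusted p = 0.089). For 6-OHG against Con it was -0.47 (SE 0.18, limma adjusted p = 0.0693), and for 6-OHG against Mod it was -0.03 (limma adjusted p = 0.92). Leaving out 6-OHG replicate 4 brought both comparisons with Con past the threshold, with limma adjusted p of 0.0313 for Mod and 0.00746 for 6-OHG. Over 25 alternatives the adjusted p ran from 0.0288 to 0.191 for Mod and from 0.00746 to 0.211 for 6-OHG. With a pseudocount of 0.1 the changes against Con were -0.78 for Mod and -0.91 for 6-OHG. About 5 to 23 read pairs stood behind each Isg15 value on the rough scale.

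Bst2 (chromosome 8, 71534255 to 71537456, minus strand) measured 0.691, 1.28, 1.32 and 1.37 FPKM in 6-OHG libraries, 1.07, 0.977, 0.991, 1.05 and 1.19 in Mod and 1.36, 1.61, 2.41 and 1.77 in Con. The Mod libraries lay close together and below every Con library, and 6-OHG replicates 2 to 4 lay near the lowest Con library. About 11 to 35 read pairs stood behind each Bst2 value on the rough scale. The means were 1.17 ± 0.318 FPKM in 6-OHG libraries, 1.06 ± 0.0862 in Mod and 1.79 ± 0.449 in Con. Bst2 therefore stood at 59.1% of its Con mean in Mod, a log2 change of -0.43 (SE 0.12, limma adjusted p = 0.0211). Against Con, 6-OHG libraries changed by -0.36 (SE 0.13, limma adjusted p = 0.0436), and against Mod by 0.06 (95% interval -0.20 to 0.32, limma adjusted p = 0.775). Without Con replicate 3, the highest library, the Mod change was -0.32 (limma adjusted p = 0.0725), and over 25 alternatives the adjusted p ran from 0.00751 to 0.0725. With a pseudocount of 0.1 the changes against Con were -0.68 for Mod, which was still called, and -0.59 for 6-OHG (limma adjusted p = 0.0512). The 6-OHG call was lost in 18 of 25 alternatives, with an adjusted p of up to 0.229. Among these it was lost without Con replicate 2, 3 or 4, with limma adjusted p of 0.06, 0.126 and 0.0734, without 6-OHG replicate 1 (0.119), and without any of Mod replicates 1 to 5 (0.0511 to 0.0564).

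Marker lists of other cell types were counted in both comparisons in which Bst2 fell. Of all 13905 genes tested, the share called in Mod against Con was 23.8%, with 9.81% as lower. The share was 30.7%, with 14.4% as lower, for 6-OHG against Con. The summed level of 12 microglia markers was 81.2 to 113 FPKM in 6-OHG libraries, 98.1 to 117 in Mod and 120 to 136 in Con, with none of the markers at 0 in any library. Of these 12, 2 fell and 0 rose in Mod against Con, and 7 fell and 0 rose in 6-OHG against Con, shares of 16.7% and 58.3%. The sum of 10 choroid plexus and ependyma markers was 28.0 to 406 FPKM in 6-OHG libraries, 72.0 to 287 in Mod and 339 to 766 in Con, and Folr1 was at 0 in 1 library. Of 6 of these tested, 1 fell in Mod against Con and 2 fell in 6-OHG against Con, shares of 16.7% and 33.3%, and 0 rose in either. Of 10 oligodendrocyte markers, 0 were called in Mod against Con, with 3 at an unadjusted p under 0.05 in limma, and 3 (30%) fell in 6-OHG against Con. Of 10 astrocyte markers, 2 (20%) fell and 0 rose in both comparisons. These were Aqp4, a water channel, with log2 changes of -0.92 for Mod and -0.79 for 6-OHG (limma adjusted p = 0.00194 and 0.00481), and Gja1, a gap junction protein, with -0.46 and -0.58 (limma adjusted p = 0.0401 and 0.014). Of 10 neuron markers, 1 (10%) fell and 0 rose in both comparisons. This was Tubb3, a tubulin, with log2 changes of -0.65 for Mod and -0.90 for 6-OHG (limma adjusted p = 0.00237 and 0.00033). Of 7 mural cell and fibroblast markers tested, 3 rose and 2 fell in both comparisons with Con, a share of 71.4%. Of 11 endothelial markers tested, 6 rose and 3 fell in Mod against Con, and 5 rose and 3 fell in 6-OHG against Con, shares of 81.8% and 72.7%, while the sum over 12 markers was 61.0 to 78.4 FPKM in 6-OHG libraries, 71.5 to 81.7 in Mod and 70.7 to 83.8 in Con. Blood leukocyte markers summed to 4.16 to 6.21 FPKM in 6-OHG libraries, 3.49 to 7.63 in Mod and 4.59 to 7.14 in Con, with Cd3e at 0 in 11 libraries and Ms4a1 at 0 in 12. Siglech (2.37 FPKM) and Ly6c2 (1.64 FPKM) had the highest means of these markers. Both, like Ptprc and Ccr2, were above 0 in every library. The microglia, choroid plexus, oligodendrocyte, astrocyte and neuron lists had no gene called as higher in either comparison with Con. Their shares are therefore set beside the shares of all genes called as lower. In Mod against Con the microglia, choroid plexus and astrocyte shares (16.7%, 16.7% and 20%) lay above the 9.81% called as lower. The neuron and oligodendrocyte shares were near or below it, and all 5 shares were below the 23.8% called in either direction. For 6-OHG against Con the microglia, choroid plexus, oligodendrocyte and astrocyte shares (58.3%, 33.3%, 30% and 20%) lay above the 14.4% called as lower. The neuron share was below it, and of these 5 lists only the microglia share was well above the 30.7% called in either direction. The part of these cell types in the Bst2 and Isg15 values was not tested.

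Ifitm3 (chromosome 7, 141009586 to 141010770, minus strand), whose protein hinders fusion of viruses with endosomes, was the most abundant member. It measured 4.95, 10.1, 10.1 and 11.0 FPKM in 6-OHG libraries, 10.6, 8.29, 8.10, 7.99 and 9.72 in Mod and 8.82, 9.70, 6.24 and 9.68 in Con. The lowest value came from 6-OHG replicate 1 and the highest from 6-OHG replicate 4, so that group spanned the range of all others. Its log2 changes were 0.06 for Mod against Con (95% interval -0.35 to 0.47), -0.03 for 6-OHG against Mod (-0.44 to 0.38) and 0.03 for 6-OHG against Con (-0.40 to 0.46), and none passed the test. The directions were not stable, since Mod against Con and 6-OHG against Mod both reversed when libraries were rescaled to equal sums (-0.01 and 0.06). Its neighbour Ifitm2, of similar sequence, measured 5.75 to 11.1, 5.60 to 8.91 and 3.82 to 7.36 FPKM in 6-OHG, Mod and Con libraries, and Ifitm1 0.329 to 0.876, 0.051 to 1.59 and 0.479 to 1.12 FPKM.

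**Figure D2:**
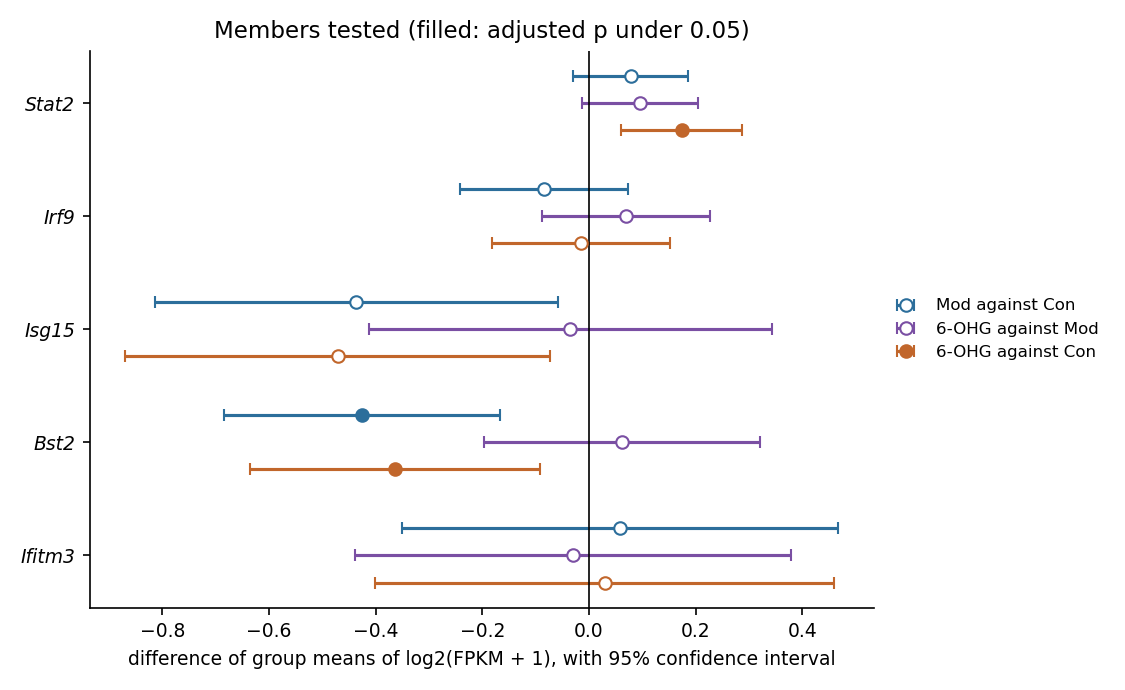
Difference of group means of log2(FPKM + 1) (horizontal axis) for the 5 members tested, with 95% confidence intervals. A single panel has a row per gene and a colour for each of the 3 comparisons, and a filled point marks an adjusted p under 0.05. Filled points are Bst2 in both comparisons with Con (-0.43 and -0.36) and Stat2 in 6-OHG against Con (0.17), while all intervals of 6-OHG against Mod span 0.

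The members did not all vary together across libraries. Of 36 pairs of members, 27 had a Pearson correlation of log2(FPKM + 1) above 0 over the 13 libraries, with a median r of 0.17. After removal of the group means 23 pairs remained above 0, with a median r of 0.15. These are descriptions with no test, since each library supplies all 9 values and its depth and cell content are common to them. The highest was between Irf7 and Irf9 (r = 0.78, and 0.79 without group means), followed by Irf7 with Ifitm3 (0.67 and 0.77) and Bst2 with Oasl2 (0.62 and 0.79). Stat2 ran against several others, with r of -0.61 to Irf7, -0.55 to Isg15 and -0.53 to Bst2. Without group means these were -0.71, -0.23 and -0.20, so only that to Irf7 stayed strong. The mean of the members' standardised levels was lowest in 6-OHG replicate 1 (-0.86) and Mod replicate 2 (-0.72), and highest in Con replicate 4 (0.82) and 6-OHG replicate 4 (0.59). Of 13900 other genes tested, those closest to this mean included D16Ertd472e (r = 0.94), Mtfr1 (0.91), Adprm (0.91), Gm6728 (0.89), Sowahc (0.89), Rdx (0.87) and Scarb2 (0.87), over 13 libraries. They were picked as the highest of 13900 correlations, with group means left in, so their r values are high by selection and carry no test.

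The steps around these genes were described with lists of other pathway genes. Of 8 interferon ligand genes matched by symbol, none reached a mean of 1 FPKM, and the highest value in any library was 0.1 FPKM, for Ifna9. Ifng, the type II ligand, had a value above 0 in 1 library (0.038 FPKM), and Ifna6, Ifna16 and Ifnk were listed at 0 throughout. The summed level of these 8 was 0 to 0.163 FPKM in 6-OHG libraries, 0 to 0.0825 in Mod and 0 to 0.038 in Con. The other 12 ligand symbols were not analysed here. Of 150 other interferon pathway genes listed, ligands included, 138 were matched and 58 were tested. Of the 58, 10 were called in Mod against Con (5 higher, 5 lower, 17.2%), 7 in 6-OHG against Mod (5 higher, 2 lower, 12.1%) and 16 in 6-OHG against Con (9 higher, 7 lower, 27.6%). Each share lay somewhat under that of all genes given above, and the median changes were 0.01, 0.03 and 0.07.

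**Figure D3:**
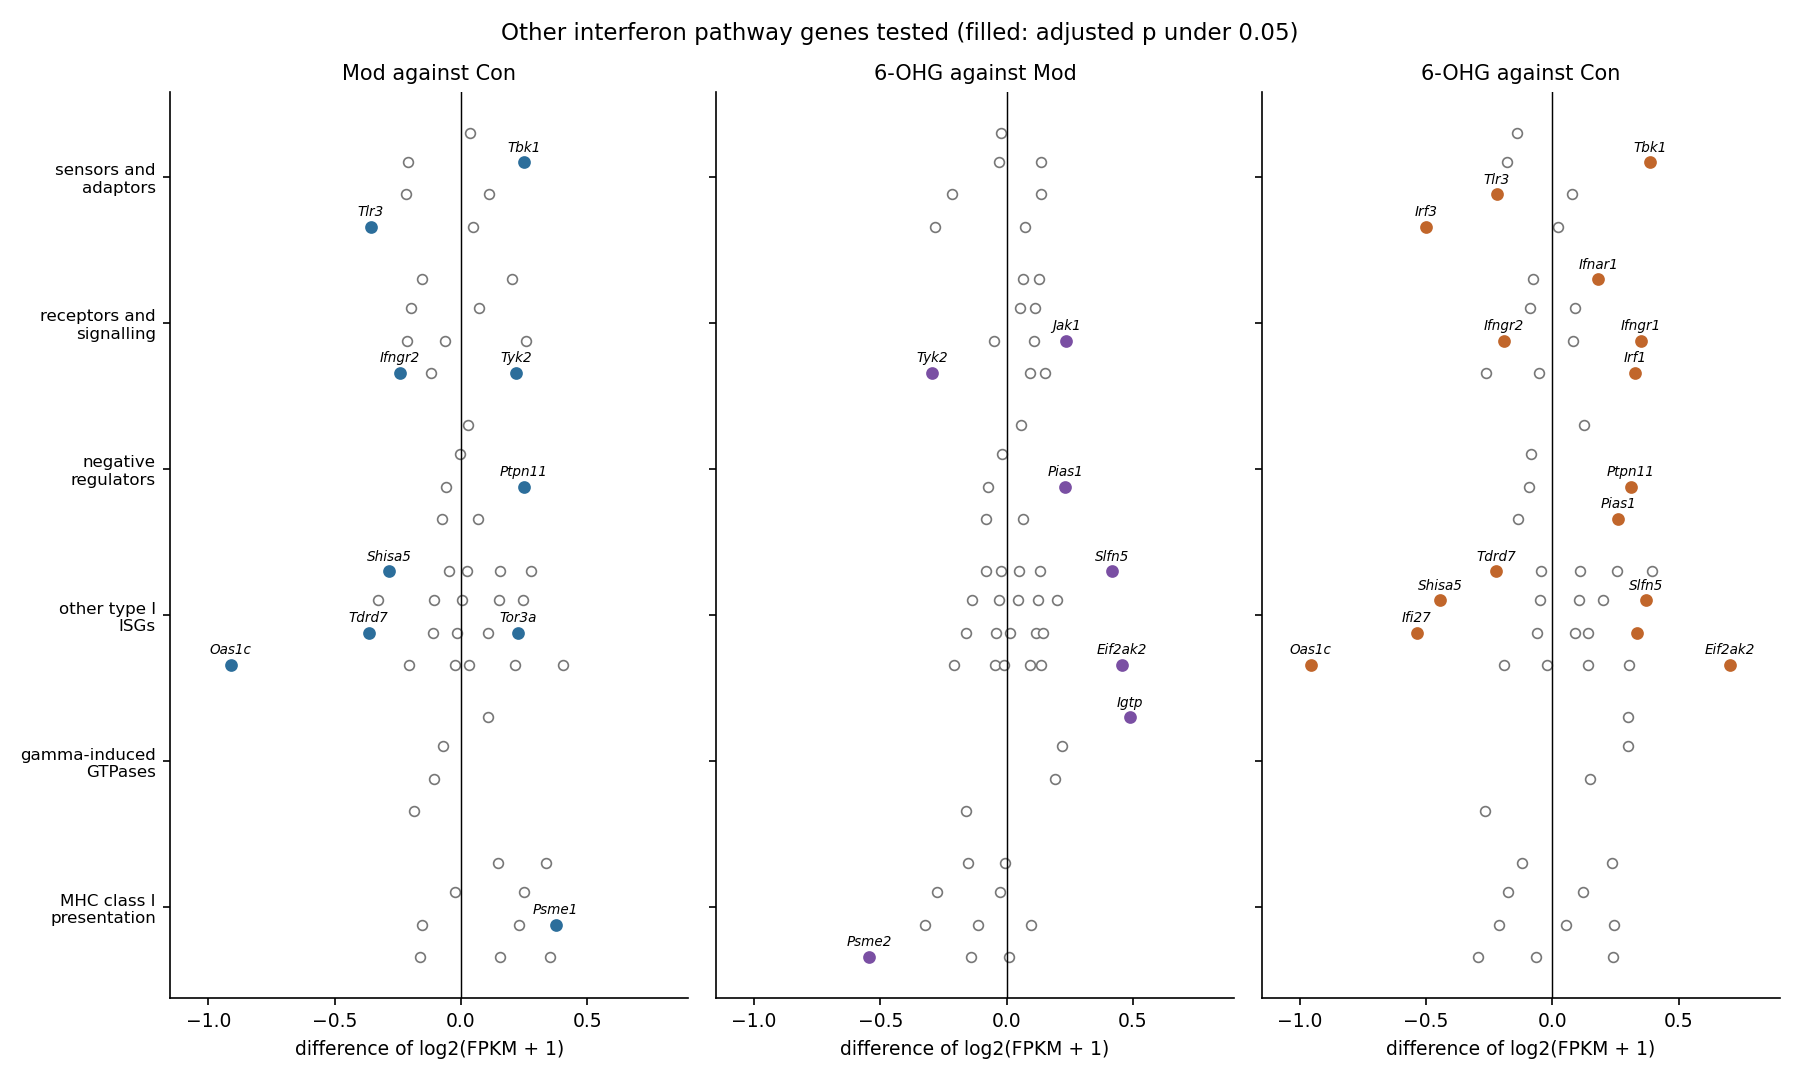
Difference of group means of log2(FPKM + 1) (horizontal axis) for the 58 other interferon pathway genes tested, 1 point per gene in rows by role and a panel for each of the 3 comparisons; filled points have an adjusted p under 0.05 and vertical position within a row has no meaning. Called genes lie on both sides of 0 in each panel, from Oas1c at -0.91 and -0.96 against Con to Eif2ak2 at 0.70 in 6-OHG against Con.

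Among 7 sensors and adaptors tested, Tbk1, the kinase that activates IRF3, rose and Tlr3, an endosomal receptor for double-stranded RNA, fell in Mod against Con. Tlr3 measured 1.78 ± 0.184 FPKM in 6-OHG libraries, 1.53 ± 0.132 in Mod and 2.24 ± 0.114 in Con, and all 5 Mod libraries lay below all 4 Con libraries. Its log2 change was -0.36 in Mod against Con (SE 0.07, limma adjusted p = 0.0024). In 6-OHG against Con the change of Tlr3 was -0.22 (limma adjusted p = 0.0316), a call lost without Con replicate 2, 3 or 4 or 6-OHG replicate 1 or 3 (limma adjusted p of up to 0.0834). Tbk1 measured 15.7 ± 0.447 FPKM in 6-OHG libraries, 14.2 ± 1.31 in Mod and 11.8 ± 0.973 in Con, and rose in 6-OHG against Con (log2 change 0.39, limma adjusted p = 0.0023). Irf3, the factor that first induces interferon genes, measured 2.47 ± 0.261 FPKM in 6-OHG libraries, 3.25 ± 0.555 in Mod and 3.91 ± 0.265 in Con, and fell in 6-OHG against Con by 0.50 on the log2 scale (SE 0.10, limma adjusted p = 0.00272). Irf3 overlaps Bcl2l12 on the opposite strand (0.766 FPKM on average). In 6-OHG against Mod 0 of the 7 were called by limma, and 2 had an unadjusted p under 0.05. The Tbk1 call in Mod against Con (log2 change 0.25, limma adjusted p = 0.0224) was lost without Con replicate 4 (0.0576), Mod replicate 1 (0.0535) or Mod replicate 4 (0.053), and ran from 0.00539 to 0.205 over 26 alternatives.

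Of 10 receptor and signalling genes tested, 2 were called in Mod against Con, 2 in 6-OHG against Mod, and 4 in 6-OHG against Con. Ifngr2, a chain of the interferon gamma receptor, fell in Mod to 7.80 ± 0.304 FPKM, against 9.43 ± 0.816 in Con (log2 change -0.24, limma adjusted p = 0.00757). Its partner chain Ifngr1 measured 5.58 ± 0.320 FPKM in 6-OHG libraries and 4.21 ± 0.819 in Con (log2 change 0.35, limma adjusted p = 0.015). In that comparison Ifngr2 fell by 0.19 (limma adjusted p = 0.026), opposite to its partner. Tyk2, a kinase bound to the type I receptor, measured 1.98, 2.03, 2.45 and 2.23 FPKM in 6-OHG libraries, 2.92, 2.92, 2.74, 2.75 and 3.10 in Mod and 2.14, 2.55, 2.30 and 2.38 in Con. All 5 Mod libraries lay above every other library. Tyk2 rose in Mod against Con (log2 change 0.22, limma adjusted p = 0.0237) and fell in 6-OHG against Mod (-0.29, limma adjusted p = 0.00866). These comparisons share the Mod libraries. The rise was lost without Con replicate 1, Con replicate 3 or Mod replicate 5, with limma adjusted p of 0.0758, 0.0604 and 0.0531 in a range of 0.00702 to 0.106 over 25 alternatives. The fall was lost with the replicate number fitted as a block (limma adjusted p = 0.0633). It was also lost when length and GC trends were removed as well (limma adjusted p = 0.128). Jak1, the other kinase of the receptor, rose in 6-OHG libraries to 21.1 ± 0.596 FPKM, against 17.8 ± 1.09 in Mod (log2 change 0.24, limma adjusted p = 0.0165), and this call was lost when trends with gene length and GC content were removed (limma adjusted p = 0.104, in a range of 0.00654 to 0.286 over 26 alternatives). Jak1 overlaps Raver2 on the opposite strand, at 3.13 FPKM on average. Ifngr2, Ifnar1 and Irf1 were called in 6-OHG against Con at log2 changes of -0.19, 0.18 and 0.33, and each lost the call without at least 4 of the 13 libraries. For Ifngr2 these were Con replicates 1 and 3 and 6-OHG replicates 3 and 4, for Ifnar1 Con replicates 3 and 4 and 6-OHG replicates 2 and 3, and for Irf1 Con replicates 1, 2 and 4 and 6-OHG replicates 3 and 4, with limma adjusted p of up to 0.0782, 0.0757 and 0.0864.

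Of 6 negative regulators tested, Ptpn11, a phosphatase that acts on STAT proteins, and Pias1, an inhibitor of STAT signalling, were called, each as higher. Ptpn11 rose in 6-OHG against Con by 0.31 on the log2 scale (SE 0.07, limma adjusted p = 0.00764). Pias1 rose in 6-OHG against Con by 0.26 (SE 0.06, limma adjusted p = 0.00511) and in 6-OHG against Mod by 0.23 (SE 0.06, limma adjusted p = 0.0145), and the second call was lost when trends with gene length and GC content were removed (0.14, limma adjusted p = 0.112, in a range of 0.00744 to 0.354 over 26 alternatives). The rise of Ptpn11 in Mod against Con (0.25, limma adjusted p = 0.023) was lost without Con replicate 3 (0.0775) or Mod replicate 3 (0.051), in a range of 0.00604 to 0.11 over 26 alternatives.

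Of 59 other type I interferon-stimulated genes, 21 were tested, and 4 were called in Mod against Con (1 higher, 3 lower), 2 in 6-OHG against Mod (both higher) and 7 in 6-OHG against Con (3 higher, 4 lower). The largest difference was that of Oas1c, of the oligoadenylate synthetase family. It measured 21.4, 19.3, 19.4 and 20.8 FPKM in 6-OHG libraries, 21.5, 21.8, 20.6, 17.2 and 23.6 in Mod and 41.1, 59.0, 35.1 and 30.2 in Con. Every exposed library lay below every Con library, at 50.6% of the Con mean in Mod and 48.9% in 6-OHG libraries. The log2 changes were -0.91 for Mod (SE 0.15, limma adjusted p = 0.00107) and -0.96 for 6-OHG (SE 0.16, limma adjusted p = 0.000847), and 6-OHG against Mod was -0.04 (95% interval -0.37 to 0.28). Oas1c belongs to a cluster of similar genes, so the division of reads among them is uncertain.

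Eif2ak2, which encodes the kinase PKR that halts translation on double-stranded RNA, measured 3.24, 4.01, 2.54 and 3.15 FPKM in 6-OHG libraries, 2.07, 1.68, 1.97, 2.08 and 2.58 in Mod and 1.31, 1.46, 1.40 and 2.26 in Con. All 4 6-OHG libraries lay above all 4 Con libraries, and 3 of the 4 lay above every Mod library. Its mean in 6-OHG libraries was 201% of that in Con (log2 change 0.70, SE 0.13, limma adjusted p = 0.00161) and 156% of that in Mod (0.46, SE 0.12, limma adjusted p = 0.0253). The call against Mod was lost without Mod replicate 2 or 3 or 6-OHG replicate 1, 2 or 4, with limma adjusted p of 0.055 to 0.0594 in a range of 0.0109 to 0.112 over 25 alternatives. Slfn5, a Schlafen family member, measured 1.42 ± 0.276 FPKM in 6-OHG libraries, 0.807 ± 0.0659 in Mod and 0.869 ± 0.130 in Con, and all 4 6-OHG libraries lay above all 9 others. It rose in 6-OHG libraries against Mod by 0.42 (SE 0.09, limma adjusted p = 0.00799) and against Con by 0.37 (SE 0.09, limma adjusted p = 0.00921). The call against Mod was lost in 1 of 25 alternatives. In that fit length and GC trends were removed and the replicate number was a block (limma adjusted p = 0.128).

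Shisa5, an endoplasmic reticulum protein gene, fell to 7.10 ± 0.520 FPKM in 6-OHG libraries and 8.04 ± 0.295 in Mod, against 10.0 ± 0.278 in Con, with log2 changes of -0.44 (limma adjusted p = 0.000155) and -0.28 (limma adjusted p = 0.00232). Tdrd7, a Tudor domain gene, fell to 7.51 ± 0.224 FPKM in 6-OHG libraries and 6.71 ± 0.456 in Mod, against 8.93 ± 0.487 in Con, with log2 changes of -0.22 (limma adjusted p = 0.0133) and -0.37 (limma adjusted p = 0.000665). Of these Tdrd7 calls, that of 6-OHG against Con was lost after rescaling to equal sums (-0.21, limma adjusted p = 0.0733, in a range of 0.00553 to 0.0733 over 26 alternatives). Ifi27 measured 6.99 ± 0.341 FPKM in 6-OHG libraries, 8.30 ± 1.20 in Mod and 10.8 ± 2.26 in Con and fell in 6-OHG against Con by 0.54 on the log2 scale (limma adjusted p = 0.00874). The called genes of this list therefore went in both directions against Con. Tor3a was called in Mod against Con (0.23, limma adjusted p = 0.0376) and lost the call in 15 of 25 alternatives, with limma adjusted p of up to 0.188, among them those without Con replicate 1, 3 or 4 or Mod replicate 1, 3 or 4 (up to 0.102).

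Rsad2, Usp18, Cxcl10 and Mx1 are often used as reporters of an acute antiviral response, and were chosen after their values were seen. Their means over all libraries were 0.0819 to 0.226 FPKM. Other interferon-stimulated genes were higher, among them Ifit2 (2.55 FPKM) and Cmpk2 (6.04 FPKM), also picked after their values were seen. Rsad2, which encodes viperin, measured 0.115 to 0.202 FPKM in 6-OHG libraries, 0.067 to 0.111 in Mod and 0.0679 to 0.295 in Con. Usp18, which removes ISG15 from proteins, measured 0.205 to 0.359, 0.0746 to 0.276 and 0.151 to 0.288 FPKM. Cxcl10, a chemokine, was between 0 and 0.0734 FPKM in 6-OHG libraries and between 0 and 0.0376 in Con, and reached 1.27 in Mod replicate 1 while the other Mod libraries lay between 0 and 0.166. Mx1, a GTPase that is defective in many laboratory strains, measured 0.0598 to 0.141 FPKM in 6-OHG libraries, 0.0654 to 0.186 in Mod and 0 to 0.0447 in Con. Both exposed groups lay above Con, at log2 changes of 0.09 for Mod and 0.10 for 6-OHG that did not pass in the fit without the filter (limma adjusted p = 0.134 and 0.0867). Mx1 values this low rest on few read pairs, and the shares of genes without overlap given above cover tested genes only.

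Of 17 genes induced by interferon gamma, 4 were tested. Igtp, an immunity-related GTPase, measured 1.28, 1.11, 1.77 and 2.12 FPKM in 6-OHG libraries, 1.03, 0.571, 0.912, 1.06 and 0.557 in Mod and 1.48, 1.19, 0.734 and 0.906 in Con. All 4 6-OHG libraries lay above all 5 Mod libraries, a log2 change of 0.49 (SE 0.15, limma adjusted p = 0.039), and Con overlapped both. Igtp overlaps Irgm2, of the same list, on the same strand (0.39 FPKM on average), so how reads were divided between them is uncertain. This call was lost without Mod replicate 2, 3 or 5 or 6-OHG replicate 3 or 4, with limma adjusted p of 0.0618 to 0.116 in a range of 0.0185 to 0.14 over 25 alternatives. By limma 0 of the 4 were called in Mod against Con, with 0 at an unadjusted p under 0.05, and 0 in 6-OHG against Con, with 1 at an unadjusted p under 0.05.

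In 12 of the 17 genes both 6-OHG replicates 3 and 4 lay above both other 6-OHG libraries, and in 8 of the 17 they lay above all 11 other libraries. This pair of libraries was singled out after the values were seen, so the counts carry no test. The share of all genes with the same split was not computed, so whether these counts are unusual is not known. Gbp2, Gbp5, Gbp7 and Ifi47 were among the 12 but not the 8: the lower of the pair was at 0.783, 0.342, 0.696 and 0.294 FPKM in these genes, and the highest of the other libraries at 1.57, 0.628, 0.938 and 0.375 FPKM. Gbp6, Ciita, Cxcl9, Ido1 and Irf8 were in neither count. The genes described next, other than Igtp, were chosen from the 8 after their values were seen. Tgtp1 measured 0.0968, 0.118, 0.822 and 1.53 FPKM in 6-OHG libraries, 0.0746 to 0.196 in Mod and 0.247 to 0.452 in Con. Tgtp2 measured 0.00881, 0.296, 0.899 and 1.69 FPKM in 6-OHG libraries, 0.0466 to 0.131 in Mod and 0.15 to 0.504 in Con. Tgtp1 and Tgtp2 are near-identical copies and may share reads. Gbp9, a guanylate-binding protein gene, measured 0.602, 0.775, 1.62 and 2.44 FPKM in 6-OHG libraries, 0.361 to 0.864 in Mod and 0.691 to 0.836 in Con. Gbp9 overlaps Gbp4 on the same strand (0.509 FPKM on average). Irgm1 measured 1.17, 1.26, 1.73 and 2.18 FPKM in 6-OHG libraries, 0.996 to 1.70 in Mod and 0.961 to 1.25 in Con. In each of these genes 6-OHG replicates 1 and 2 lay within or below the range of the other libraries. Irgm1 was tested and did not pass in 6-OHG against Mod (log2 change 0.19, limma adjusted p = 0.314). Fitted without the filter, Tgtp1, Tgtp2 and Gbp9 had log2 changes of 0.45, 0.57 and 0.53 in 6-OHG against Mod, with limma adjusted p of 0.312, 0.216 and 0.182. Among the 9 interferon-stimulated genes, 6-OHG replicate 4 had the highest Irf7, Isg15, Bst2, Ifitm3 and Oasl2 values of its group, and replicate 3 had the highest Stat2 and the lowest Isg15. The summed choroid plexus and ependyma markers were 353 and 406 FPKM in 6-OHG replicates 3 and 4 and 87.5 and 28.0 in replicates 1 and 2. The same sum was 339 to 766 FPKM in Con libraries and 72.0 to 287 in Mod. Ttr had the highest mean of these markers over all libraries (253 FPKM), followed by Enpp2 (38.7 FPKM). The part of these markers in the GTPase values was not tested.

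**Figure D4:**
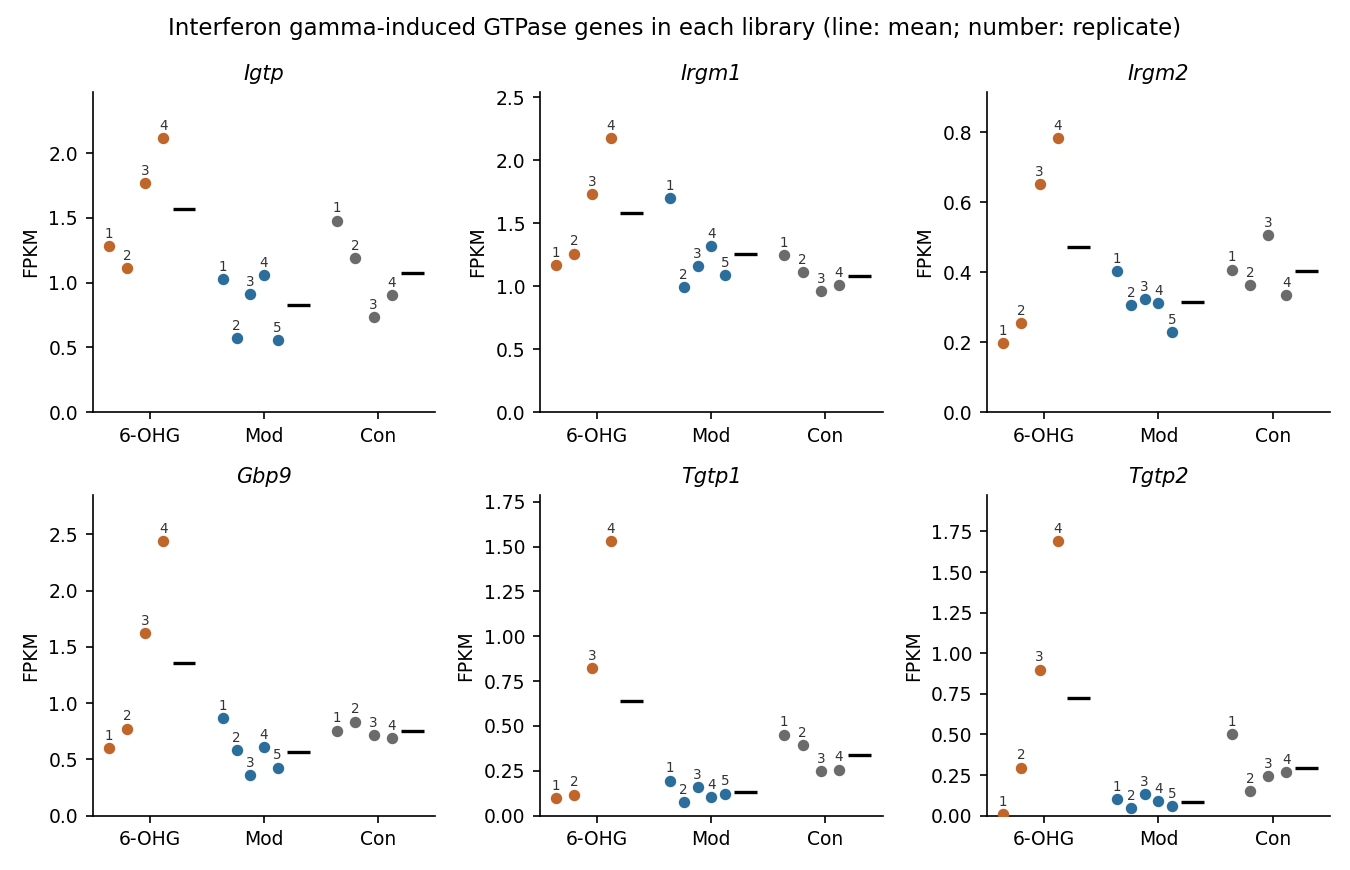
Level of 6 interferon gamma-induced GTPase genes in FPKM (vertical axes, starting at 0) in every library of the 6-OHG, Mod and Con groups; points are libraries numbered by replicate and the black line is the group mean. In 6-OHG replicates 3 and 4 Igtp was at 1.77 and 2.12 FPKM and Gbp9 at 1.62 and 2.44, above replicates 1 and 2 of that group.

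Of 10 MHC class I presentation genes tested, 1 was called between Mod and Con and 1 between 6-OHG and Mod, both subunits of the proteasome activator. Psme1, which overlaps Emc9 on the opposite strand (5.74 FPKM on average), measured 9.56 ± 1.73 FPKM in 6-OHG libraries, 12.1 ± 1.04 in Mod and 9.17 ± 1.55 in Con, and rose in Mod against Con by 0.38 on the log2 scale (SE 0.12, limma adjusted p = 0.0406). Psme2 measured 3.06 ± 1.00 FPKM in 6-OHG libraries, 4.85 ± 0.992 in Mod and 3.60 ± 0.319 in Con, and fell in 6-OHG against Mod by 0.54 (SE 0.16, limma adjusted p = 0.0363). Neither call was stable. That of Psme1 was lost without Con replicate 1, 2 or 3 or Mod replicate 1, 3, 4 or 5, with limma adjusted p of up to 0.122. That of Psme2 was lost without Mod replicate 1, 2, 4 or 5 or 6-OHG replicate 1, 3 or 4, with limma adjusted p of up to 0.0893. In 6-OHG against Con 0 of the 10 were called by limma, and 0 had an unadjusted p under 0.05.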

How the data were processed

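Brain RNA was measured in 13 libraries (6-OHG 4, Mod 5, Con 4). Per the labels' protocols, RNA extracted with Trizol was sequenced on the NovaSeq platform in paired reads of 150 bases. The authors deposited a single table of FPKM values. The submitters' processing notes name, without role or order, HISAT2 2.2.1, cutadapt 1.9, StringTie 2.1.6, FastQC, edgeR, DESeq2 and featureCounts 1.5.0-p3, and the builds mm10 and GRCm38. The annotation release, strand setting and filters are not given in the sources used here. Read totals are unknown, so no counting error is given.

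Of 37636 gene IDs, 37499 were matched to symbols. Gene positions came from GENCODE M21 (GRCm38) and promoter windows from RefSeq (GRCm38.p6). Group means of log2(FPKM + 1) were fitted with limma 3.58.1 (R 4.3.3) over all 13 libraries for 13905 genes whose mean was 1 FPKM or more. Variances were moderated with a mean trend, with Benjamini-Hochberg adjustment across the genes tested. The procedure was tested on simulated data. The 26 alternatives changed the pseudocount (to 0.1), the filter (none, or 5 FPKM), the scaling, the moderation, the weights, the groups fitted, the block, or length and GC trends, or left out libraries. The members and lists were chosen with earlier results of these data known. The genes named are the 9 members, any called gene and the 4 most abundant genes of each other list, the 8 genes closest to the members' mean, and near-identical copies; other genes are marked where they appear. Protein sequences are not used here, and a few named genes are not reported here.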

Additional observations from a re-analysis of the deposited data

Results flagged for a closer look

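Bst2 in 6-OHG replicate 1 (0.691 FPKM) lay far from the other 3 libraries of its group, which measured 1.28 to 1.37 FPKM, with a gap of 0.867 of the group's range. Ifitm3 in the same library (4.95 FPKM) lay far from the other 3, at 10.1 to 11.0 FPKM, with a gap of 0.851 of the range. These were 2 of 27 groups of member values examined, and chance alone marks about 1 group in 20. That library also had the lowest Irf7 (0.107 FPKM), Irf9 (2.02), Ifit3 (0.682) and Oasl2 (0.224) of its group. Its summed microglia, astrocyte and oligodendrocyte markers were 92.0, 452 and 760 FPKM, against 81.2 to 113, 440 to 549 and 1110 to 1400 in the other 6-OHG libraries, and their part in these values was not tested. Without it, the change of Bst2 in 6-OHG against Con was -0.25 (limma adjusted p = 0.119, in a range of 0.0287 to 0.229 over 25 alternatives).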

How the results depend on the processing

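The number of members called in Mod against Con (1, Bst2) became 0 without a filter, 0 at a mean of at least 5 FPKM (where Bst2 was not tested), 2 in a fit of only the compared groups and 2 with length and GC trends removed (Bst2 and Isg15 in both), and it ran from 0 (without Con replicate 3) to 2 (without 6-OHG replicate 4) when 1 library was left out. In 6-OHG against Mod it stayed at 0 in all 26 alternatives. In 6-OHG against Con (2, Stat2 and Bst2) it was 1, Stat2, with a pseudocount of 0.1, no filter, a filter at 5 FPKM, libraries rescaled to equal sums, length and GC trends removed, sample weights, or without Con replicate 4 and 6-OHG replicate 2 together, and 0 in a fit of only the compared groups; leaving out 1 library gave 0 to 3, with 0 without Con replicate 2 or 6-OHG replicate 1. The replicate block gave 0 here, also with length and GC trends removed. Of the other interferon genes, the 10 called in Mod against Con became 6 after rescaling and 16 with sample weights, the 7 in 6-OHG against Mod became 3 at 5 FPKM, 3 with length and GC trends removed and 4 to 8 when 1 library was left out (4 without Mod replicate 2 or 6-OHG replicate 4), and the 16 in 6-OHG against Con became 10 at 5 FPKM. With the replicate block there were 6 between Mod and Con and 2 between 6-OHG and Mod, where removal of length and GC trends as well left 0. In that last setting 64 of 13894 genes were called in 6-OHG against Mod, beside 2131 of 13905 in the main fit. The fits with fewer genes or libraries test less; the cause of the other shifts was not tested.

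Deviations from the group means in libraries of the same replicate number had correlations of -0.483 to 0.346. Libraries of different numbers were not compared, so whether the numbers pair libraries was not settled. The directions that reversed belonged to changes that passed in no alternative. Ifitm3 in Mod against Con was -0.0054 rescaled, -0.0399 with length and GC trends removed, -0.0679 with the block as well, and -0.0715 to 0.116 when 1 library was left out. Ifitm3 in 6-OHG against Mod was 0.0622, 0.159 and 0.187 in these settings and -0.131 to 0.205 when 1 library was left out, and in 6-OHG against Con it ran from -0.101 to 0.264. Isg15 in 6-OHG against Mod was 0.0817 after quantile normalization, 0.165 and 0.149 with length and GC trends removed, without and with the block, 0.0507 with sample weights, 0.0207 without the 2 libraries named above, and -0.224 to 0.105 when 1 library was left out. Irf9 in 6-OHG against Con was 0.0073 rescaled and -0.0259 to 0.0094 when 1 library was left out. The motif count of 6 members became 8 with 1 mismatch allowed.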
